A study of Mus musculus with 12 samples.

Results

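The expression of 10 genes of branched-chain amino acid breakdown was followed in hearts of wild type and ADAM12 knockout mice. The mice had either a sham operation or transverse aortic constriction (TAC), which narrows the aortic arch and makes the left ventricle pump against a higher pressure. The genes are enzymes or regulators of the pathway, and they were chosen with earlier results of these data known. Each was read on its brightest probe set that carries a single gene symbol. All 10 were found, each on 1 probe set, among 26989 genes tested. The members are Bcat2, Bckdha, Bckdhb, Dbt, Bckdk, Ppm1k, Ivd, Mccc1, Acadsb and Hibadh.

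Each heart was hybridized to 1 Clariom D mouse array from total RNA, 12 arrays in 4 groups of 3 biological replicates. The groups were wild type sham, wild type TAC, ADAM12 knockout sham and ADAM12 knockout TAC. Every mouse was a male C57BL/6J, 10 weeks of age per the labels, and hearts were taken 2 weeks after surgery. How the knockout allele was made, whether it acts in every cell and whether the wild type mice were littermates are not given in the sources used here.

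Leucine, isoleucine and valine are the branched-chain amino acids. They first lose their amino group to the mitochondrial transaminase BCAT2, and the resulting keto acids are then committed to oxidation by the branched-chain keto acid dehydrogenase complex, which is built from the E1 subunits BCKDHA and BCKDHB, the E2 core DBT and the E3 subunit DLD. The kinase BCKDK phosphorylates BCKDHA and shuts the complex down, while the phosphatase PPM1K removes the phosphate and opens it. Separate enzymes then finish each chain: IVD and MCCC1 act on leucine, ACADSB on isoleucine and HIBADH on valine. Heart muscle oxidizes these keto acids, and the transcription factor KLF15 is known as an activator of the pathway in the heart.

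RefSeq promoter windows (GRCm38.p6, 250 bases before to 50 after a transcription start) were given for 9 of the 10 members, 11 windows in all, and Dbt had none. Shown are the windows of the 3 members with the smallest p for TAC averaged over genotypes: Bckdhb at chr9:83924887-83925186 on the plus strand, Ivd at chr2:118861744-118862043 on the plus strand and Mccc1 at chr3:36000629-36000928 on the minus strand. Each is printed on the strand of its gene. Capitals mark CACCC or its reverse complement GGGTG, letters that KLF factors can bind. A second Bckdhb window, at chr9:83948531-83948830, held 0 of these matches and is not shown.
Bckdhb: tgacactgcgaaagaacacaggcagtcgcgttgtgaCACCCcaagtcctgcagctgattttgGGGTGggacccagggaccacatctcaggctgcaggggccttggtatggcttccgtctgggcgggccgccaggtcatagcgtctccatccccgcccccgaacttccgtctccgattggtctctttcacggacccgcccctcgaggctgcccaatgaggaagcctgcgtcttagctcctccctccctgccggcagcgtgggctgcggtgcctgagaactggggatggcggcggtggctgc
Ivd: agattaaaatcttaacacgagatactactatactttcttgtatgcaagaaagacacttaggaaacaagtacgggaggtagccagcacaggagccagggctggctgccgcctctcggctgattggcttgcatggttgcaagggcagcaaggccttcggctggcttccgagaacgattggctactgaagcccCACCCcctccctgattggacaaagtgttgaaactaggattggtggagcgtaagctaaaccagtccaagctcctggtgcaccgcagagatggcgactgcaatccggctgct
Mccc1: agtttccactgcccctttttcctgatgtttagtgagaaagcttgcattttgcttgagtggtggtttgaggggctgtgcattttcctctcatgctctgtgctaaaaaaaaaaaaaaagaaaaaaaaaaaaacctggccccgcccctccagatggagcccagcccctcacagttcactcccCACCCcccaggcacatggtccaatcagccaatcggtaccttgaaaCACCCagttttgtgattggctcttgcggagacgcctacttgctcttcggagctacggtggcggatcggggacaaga
CACCC on either strand was present in 7 of the 11 member windows, against 57.5% of all 32851 promoter windows of the same length, so the members were near the background. AAGGTCA, which nuclear receptors such as ERR bind, was in 0 of the 11 windows on either strand and in 4.72% of all windows. With 0 matches of AAGGTCA, the motifs did not overlap. These matches describe letters only.

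Array-wide signal was alike, with medians over all probe sets between 5.06 and 5.19 on the log2 scale. Adam12 itself has a single usable reading here, from low-signal probes that also carry the name 5830403F22Rik, at 4.46 to 4.80 in the 6 wild type arrays and 4.25 to 4.40 in the 6 knockout arrays, without overlap. Which part of the gene those probes cover was not known here. The tissue label was borne out by the 8 cardiomyocyte markers measured, such as Myh6, whose mean log2 signal was 19.36 in wild type sham hearts against a highest value of 19.93 in the table. Bcat2 was brighter than 81.4% of the genes tested and each of the others brighter than 90.6% or more.

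In knockout hearts all 10 members fell after TAC. The median difference of the 10 was -1.02 on the log2 scale, with single genes from -1.55 to -0.42, and adjusted p ran from 0.000389 to 0.00783 (limma over all genes, Benjamini-Hochberg, n = 3 against 3). Here and below, genes counted as having fallen or risen passed at an adjusted p under 0.05. Over all genes tested, 5.68% fell in this comparison, 57.4% had a difference below 0, and the median difference was -0.03. Among the tenth of genes with the brightest signal 18.2% fell. In 10 of 10 members every knockout TAC array lay below every knockout sham array, as in 16.9% of all genes and 801 of the 2699 brightest. Because these are whole hearts, fewer cells of a type and less RNA per cell cannot be told apart.

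The transaminase gene Bcat2 read 8.98, 9.05 and 9.01 in wild type sham replicates 1 to 3, 8.56, 8.35 and 8.42 in the wild type after TAC, 9.23, 8.73 and 9.04 in sham knockouts, and 8.22, 8.11 and 8.21 in knockouts after TAC. Both TAC groups lay below both sham groups, and knockout TAC lay below wild type TAC without overlap. Bcat2 fell by 0.82 ± 0.11 (SE) in the knockout at adjusted p = 0.00086 by limma, which leaves 56.7% of the sham signal on the linear scale. In wild type hearts its difference was -0.57 ± 0.11 at adjusted p = 0.0714.

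The 3 subunit genes particular to the dehydrogenase complex fell by more than 1 log2 unit each in the knockout after TAC. Bckdha, the E1 alpha subunit that carries the regulatory phosphate, read 11.38, 11.53 and 11.51 in wild type sham, 11.54, 10.83 and 10.91 in the wild type after TAC, 11.61, 11.40 and 11.72 in sham knockouts, and 10.53, 10.10 and 10.46 in knockouts after TAC. Wild type TAC replicate 1 stood at the sham level while replicates 2 and 3 were lower, so the wild type groups overlapped. Bckdha fell by 1.21 ± 0.18 in the knockout (adjusted p = 0.0012, limma) and differed by -0.38 ± 0.18 in wild type hearts (adjusted p = 0.415).

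Bckdhb, the E1 beta subunit, read 12.05, 11.98 and 12.21 in wild type sham, 11.46, 11.10 and 11.55 in the wild type after TAC, 12.11, 11.93 and 12.12 in sham knockouts, and 10.74, 10.55 and 10.94 in knockouts after TAC. The 3 levels, sham, wild type TAC and knockout TAC, were separate on every array. It fell by 1.31 ± 0.13 in the knockout (adjusted p = 0.000389, limma), to 40.3% of sham, and differed by -0.71 ± 0.13 in wild type hearts (adjusted p = 0.0659).

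Dbt, the E2 core on which the complex is assembled, read 12.88, 12.94 and 13.02 in wild type sham, 12.71, 12.13 and 12.60 in the wild type after TAC, 12.89, 12.67 and 12.94 in sham knockouts, and 11.51, 11.67 and 11.83 in knockouts after TAC. Knockout TAC arrays lay below all others, and wild type TAC lay below wild type sham without overlap. Dbt fell by 1.16 ± 0.14 in the knockout (adjusted p = 0.000596, limma) and differed by -0.47 ± 0.14 in wild type hearts (adjusted p = 0.205). Dld, the E3 subunit shared with the pyruvate and oxoglutarate dehydrogenases, fell by 0.49 ± 0.10 in the knockout (adjusted p = 0.00779, limma), and is named for its place in the complex.

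**Figure D1:**
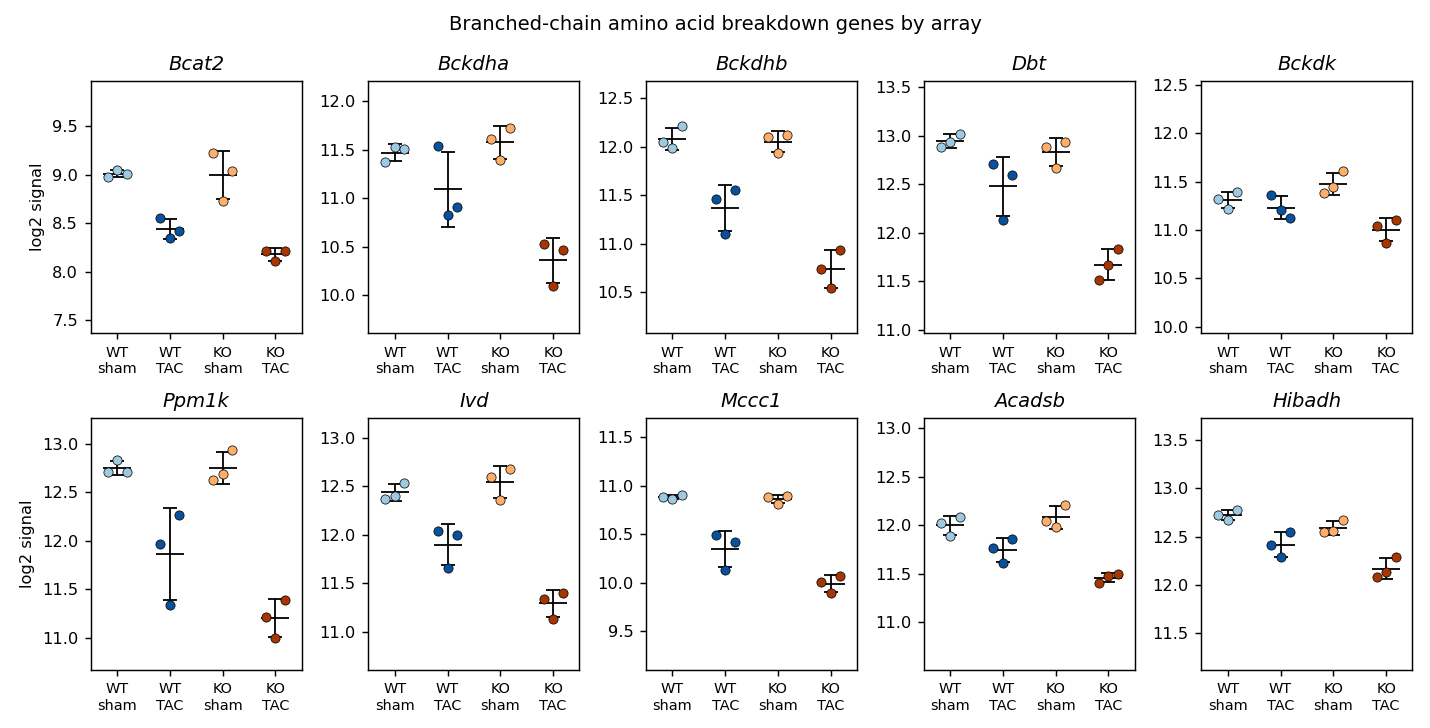
Log2 signal of each of the 10 genes (one panel each, vertical axes of equal length but different position) on the 12 arrays. Points are arrays in replicate order, and black bars are the group mean ± SD (n = 3). In every panel the knockout TAC arrays lie below both sham groups, and Ppm1k drops furthest, from a mean of 12.75 in knockout sham to 11.20 in knockouts after TAC.

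The kinase and phosphatase genes, which set the activity of the complex in opposite ways, both fell in the knockout but by unequal amounts. Ppm1k, the phosphatase, read 12.71, 12.84 and 12.71 in wild type sham, 11.97, 11.34 and 12.27 in the wild type after TAC, 12.63, 12.69 and 12.94 in sham knockouts, and 11.22, 11.002 and 11.39 in knockouts after TAC. Its wild type TAC arrays were the most spread of any member and group (SD 0.47), and replicate 2 reached into the knockout TAC range. Ppm1k fell by 1.55 ± 0.19 in the knockout (adjusted p = 0.000625, limma), to 34.2% of sham, and differed by -0.89 ± 0.19 in wild type hearts (adjusted p = 0.0939).

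Bckdk, the kinase, read 11.31, 11.22 and 11.39 in wild type sham, 11.36, 11.21 and 11.12 in the wild type after TAC, 11.38, 11.44 and 11.60 in sham knockouts, and 11.04, 10.87 and 11.10 in knockouts after TAC. The wild type groups overlapped and the knockout groups did not. Bckdk fell by 0.47 ± 0.09 in the knockout (adjusted p = 0.00687, limma), to 72.1% of sham, while its wild type difference was -0.08 ± 0.09 (adjusted p = 0.802, 95% interval -0.28 to 0.13).

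Taking Ppm1k minus Bckdk on each array, set to 0 at the wild type sham mean, gave -0.84, -1.31 and -0.29 in wild type TAC replicates and -1.27, -1.31 and -1.15 in knockout TAC replicates. Sham arrays ran from -0.13 to 0.18 in the wild type and from -0.20 to -0.11 in the knockout. The phosphatase signal was thus lower relative to the kinase signal on all 6 TAC arrays than on any of the 6 sham arrays. Group means were -0.81 ± 0.51 in the wild type after TAC, -0.17 ± 0.05 in sham knockouts and -1.24 ± 0.08 in knockouts after TAC (SD, n = 3). Transcripts only were measured, not phosphorylation or enzyme activity.

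The leucine arm is represented by Ivd and Mccc1. Ivd, isovaleryl-CoA dehydrogenase, read 12.37, 12.40 and 12.53 in wild type sham, 12.04, 11.65 and 11.9961 in the wild type after TAC, 12.60, 12.35 and 12.68 in sham knockouts, and 11.34, 11.13 and 11.39 in knockouts after TAC. It fell by 1.25 ± 0.12 in the knockout (adjusted p = 0.000389, limma), to 42.0% of sham, and differed by -0.54 ± 0.12 in wild type hearts (adjusted p = 0.103). As with Bckdhb, the wild type TAC arrays formed a level of their own between sham and knockout TAC.

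Mccc1, the biotin-carrying subunit of methylcrotonyl-CoA carboxylase, read 10.89, 10.86 and 10.90 in wild type sham, 10.49, 10.13 and 10.42 in the wild type after TAC, 10.88, 10.82 and 10.89 in sham knockouts, and 10.00, 9.90 and 10.07 in knockouts after TAC. Its sham arrays were the tightest of the members, with SD 0.02 in the wild type. It fell by 0.87 ± 0.09 in the knockout (adjusted p = 0.000419, limma). Its wild type difference of -0.54 ± 0.09 had an adjusted p of 0.0502, the smallest of the members in that comparison.

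The isoleucine and valine arms have 1 member each. Acadsb, the short/branched-chain acyl-CoA dehydrogenase, ran from 11.98 to 12.21 in sham knockouts and from 11.41 to 11.50 in knockouts after TAC, and from 11.89 to 12.08 in wild type sham and 11.61 to 11.85 in wild type TAC. It fell by 0.62 ± 0.09 in the knockout (adjusted p = 0.00109, limma) and differed by -0.26 ± 0.09 in wild type hearts (adjusted p = 0.255). Hibadh, which oxidizes 3-hydroxyisobutyrate from valine, ran from 12.54 to 12.67 in knockout sham and from 12.08 to 12.29 in knockouts after TAC. It fell by 0.42 ± 0.09 in the knockout (adjusted p = 0.00783, limma), to 74.7% of sham, and differed by -0.31 ± 0.09 in wild type hearts (adjusted p = 0.17).

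In wild type hearts 0 of 10 members passed by limma, where 0.111% of all genes fell, although all 10 differences were below 0, as were 43% of all genes, with a median of -0.50. At an unadjusted p under 0.05, 8 of 10 were lower, against 5.54% of all genes and 338 of the 2699 genes with the brightest signal. In 8 of 10 every TAC array lay below every sham array, the exceptions being Bckdha and Bckdk. This held for 7.07% of all genes and 405 of the 2699 brightest. The count of members that passed was 3 without wild type TAC replicate 3, 3 when dim genes were left out and 5 with array weights, each of them lower. Calls over all genes rose as well, from 48 in the fit reported to 264, 198 and 352 in the same order.

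Averaged over genotypes, all 10 members fell, from -1.22 ± 0.14 for Ppm1k to -0.27 ± 0.07 for Bckdk, at adjusted p between 0.000214 and 0.0179 (limma), where 6.12% of all genes fell. All 10 also passed in the knockout and in the average when any single array was left out. The TAC difference was more negative in the knockout than in the wild type in 10 of 10 members, as in 58.8% of all genes. The test of this contrast, the interaction, passed for 0 of 10 members by limma. For the 8 members whose wild type interval lay below 0 the ratio of the differences ran from 1.37 for Hibadh to 2.48 for Dbt. No interval was computed for these ratios, and the interaction intervals of Hibadh and Bcat2 included 0. The wild type intervals of Bckdha and Bckdk spanned 0, and no ratio is given for them.

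**Figure D2:**
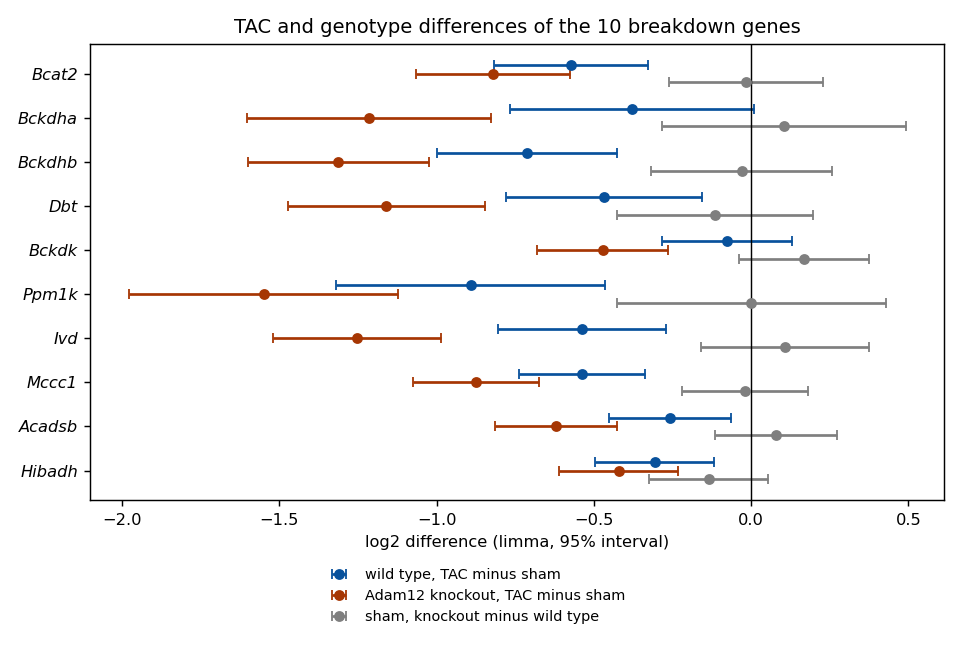
Log2 differences of the 10 genes from limma with 95% intervals (horizontal axis), for TAC minus sham in wild type hearts (blue), TAC minus sham in ADAM12 knockout hearts (brown) and knockout minus wild type after sham (grey). All 10 brown intervals lie below 0, from -1.98 to -0.23 over their bounds, 8 of 10 blue intervals do, and all 10 grey intervals span 0.

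After TAC, 0 of 10 members passed between knockout and wild type by limma, where 0.0111% of all genes passed in either direction and 0 genes were lower. All 10 differences were below 0, as were 61.7% of all genes, with a median of -0.48, a lowest adjusted p of 0.0592 and a highest of 0.303. All 10 had an unadjusted p under 0.05 and a negative sign, against 7.67% of all genes and 385 of the 2699 genes with the brightest signal. Dbt differed most, by -0.81 ± 0.14 (adjusted p = 0.0592), followed by Bckdha at -0.73 ± 0.18 (adjusted p = 0.0807), Ppm1k at -0.66 ± 0.19 (adjusted p = 0.142), Bckdhb at -0.63 ± 0.13 (adjusted p = 0.0631) and Ivd at -0.61 ± 0.12 (adjusted p = 0.0615).

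In 8 of 10 members all knockout TAC arrays lay below all wild type TAC arrays, against 11.3% of all genes and 391 of the 2699 brightest. The exceptions were Ppm1k and Hibadh, where wild type TAC replicate 2, at 11.34 and 12.29, reached the highest knockout TAC values of 11.39 and 12.29. That array was the lowest of its group in 9 of 10 members. Without it 6 members passed, all lower in the knockout, and without knockout TAC replicate 3 the count was 1. With dim genes left out it was 5. Calls over all genes rose as well, from 3 in the fit reported to 774, 152 and 621 in the same order.

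After sham surgery 0 of 10 members passed by limma, as did 0 of all genes, and 0 members had an unadjusted p under 0.05 in either direction, against 5.53% of all genes. Differences ran from -0.13 for Hibadh to 0.17 for Bckdk, 5 below 0 (48.1% of all genes were) and 5 above, and the 95% intervals of the 10 reached from -0.43 to 0.49. The members Bckdha, Bcat2, Bckdk and Acadsb lie on mouse chromosome 7 together with Adam12, and their sham differences were 0.10, -0.02, 0.17 and 0.08.

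The difference between the genotypes' TAC responses was tested directly as the interaction, and 0 of 10 members passed by limma, with the lowest adjusted p at 0.259 for Ivd (-0.72 ± 0.17). Over all genes 0 passed as well. All 10 estimates were below 0, as were 58.8% of all genes. Of the 10, 8 had an unadjusted p under 0.05, against 5.93% of all genes and 266 of the 2699 brightest on the same side. The 95% intervals of Bcat2 and Hibadh included 0. Bckdha had the largest estimate, -0.83 ± 0.25 (adjusted p = 0.278). Without wild type TAC replicate 2, Dbt (-0.87, adjusted p = 0.0414) and Ivd (-0.84, adjusted p = 0.0464) passed in limma. Over all genes 151 passed in that fit.

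The wild type TAC arrays differed among themselves more than the other groups did. The median SD of the members was 0.20 there, 0.08 in wild type sham, 0.13 in knockout sham and 0.13 in knockouts after TAC. The mean over the 10 members was 11.43, 11.06 and 11.37 in wild type TAC replicates 1 to 3, against 11.73 to 11.81 in wild type sham, 11.66 to 11.88 in knockout sham and 10.69 to 10.92 in knockouts after TAC. Replicate 2 therefore lay nearest to the knockout TAC arrays.

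Markers of other cells moved beside the members. The 7 fibroblast markers measured had a mean log2 signal of 10.76 to 11.02 in wild type sham, 12.06, 12.88 and 11.25 in wild type TAC replicates 1 to 3, 10.71 to 10.92 in knockout sham and 13.21 to 13.60 in knockouts after TAC. The array with the lowest members in wild type TAC, replicate 2, was thus the one with the highest fibroblast markers. Replicate 3 had the lowest fibroblast markers, but the members were highest in replicate 1. Other lists differed: of the wild type TAC arrays, replicate 2 had the lowest macrophage and monocyte mean, 8.57, and the middle endothelial mean, 11.79. Its smooth muscle and pericyte mean, 10.54, was the highest. Of the 7 fibroblast markers 6 rose in the knockout after TAC, and of 5 macrophage and monocyte markers 5 rose, the latter from 7.80 to 8.17 in sham to 8.92 to 9.79 in TAC. Over all genes 7.08% rose in this comparison. Of 7 endothelial markers 2 rose in the knockout, and their mean went from 11.64 to 11.73 in sham to 11.87 to 12.05 after TAC, without overlap. Of 4 smooth muscle and pericyte markers 1 rose, with means of 9.75 to 10.44 and 10.58 to 10.68. By limma 0 of 3 lymphocyte, 0 of 1 red blood cell and 0 of 3 adipocyte markers passed in the knockout, and 0 of them had an unadjusted p under 0.05. The part of these markers in the members' falls was not tested.

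The mean of the cardiomyocyte markers moved over a narrow range. It ran from 17.06 to 17.08 in sham knockouts and from 16.80 to 16.92 in knockouts after TAC, and from 17.00 to 17.01 and 16.91 to 16.97 in wild type sham and TAC. Of the 8 markers 3 fell in the knockout, against 5.68% of all genes and 18.2% of the tenth with the brightest signal. They were Tnni3, the inhibitory troponin, by 0.58 ± 0.08, Ryr2, the calcium release channel, by 0.48 ± 0.08 and Pln, which restrains the calcium pump, by 0.30 ± 0.08, named after their values were seen. The others, Myh6, Tnnt2, Actn2, Myl2 and Myl3, did not pass, and differed by -0.22 to 0.09. The 4 atrial markers varied widely within groups, with a mean of 12.46 to 15.08 in sham knockouts and 12.27 to 14.00 in knockouts after TAC, and 0 of 4 passed by limma in the knockout.

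**Figure D3:**
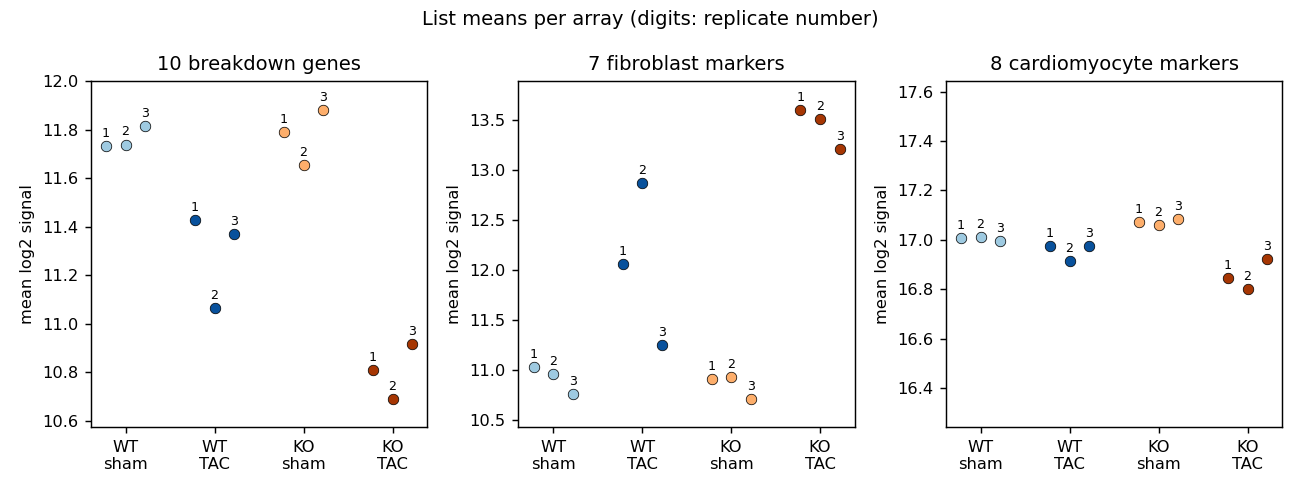
Mean log2 signal (vertical axes, each panel with its own range) of the 10 breakdown genes, 7 fibroblast markers and 8 cardiomyocyte markers on each array, with replicate numbers above the points. Wild type TAC replicate 2 has the lowest mean of its group for the breakdown genes, 11.06, and the highest for the fibroblast markers, 12.88.

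The rest of the pathway moved in the same direction for most of its enzymes. Of 17 other enzymes measured, 14 fell in the knockout after TAC and 0 rose, against 5.68% and 7.08% of all genes. Their median was -0.54. The other 3 were Acad8 at -0.24, Oxct1 at -0.26 and Bcat1, the cytosolic transaminase, at 0.08. In wild type hearts 0 of 17 passed by limma, and the median was -0.24. At an unadjusted p under 0.05, 8 of them were lower, against 5.54% of all genes.

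The 5 other enzymes with the smallest p in the averaged comparison were Aldh6a1, Mccc2, Pcca, Echs1 and Acat1. Aldh6a1, which makes propionyl-CoA at the end of the valine arm, fell by 1.27 ± 0.13 in the knockout (adjusted p = 0.000389, limma) and differed by -0.62 ± 0.13 in wild type hearts. Mccc2, the partner subunit of Mccc1, fell by 0.94 ± 0.11, and Pcca, a subunit of propionyl-CoA carboxylase, by 0.83 ± 0.09. Echs1, an enoyl-CoA hydratase, fell by 0.62 ± 0.08 and Acat1, a mitochondrial thiolase, by 0.55 ± 0.09. Their wild type differences were -0.45, -0.33, -0.32 and -0.31 in that order.

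The transporters of branched-chain amino acids did not follow the enzymes. They were much dimmer, with list means of 6.69 to 7.08 over the 12 arrays against 10.69 to 11.88 for the members. Slc3a2 was listed but was not among the genes tested. Of 6 measured, 2 rose and 0 fell in the knockout, where 7.08% of all genes rose, and the median of the 6 was 0.06. In wild type hearts 0 of 6 passed by limma. There 1 was higher at an unadjusted p under 0.05, as were 1834 of the 26989 genes tested. Slc7a5, the large neutral amino acid transporter of the cell surface, rose by 0.50 ± 0.14 in the knockout (adjusted p = 0.0327, limma) and differed by 0.55 ± 0.14 in the wild type (adjusted p = 0.133). Slc7a6, a cationic and neutral amino acid exchanger, rose by 0.34 ± 0.09 (adjusted p = 0.023, limma). Slc43a2 differed by 0.06, Slc43a1 by -0.05 and Slc25a44, the mitochondrial carrier of these amino acids, by -0.0026 in the knockout. The call on Slc7a5 was lost without any one of the 6 knockout arrays (adjusted p from 0.0651 to 0.101, limma), and that on Slc7a6 without any of them except knockout TAC replicate 1 (adjusted p from 0.0527 to 0.101, limma).

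Among regulators, 3 of 4 measured fell in the knockout after TAC, against 5.68% of all genes. In wild type hearts 0 of 4 passed by limma. There 2 were lower at an unadjusted p under 0.05, against 5.54% of all genes. Ppargc1a, a coactivator of mitochondrial genes, fell by 1.20 ± 0.18 (adjusted p = 0.00129, limma), and Ppara, a nuclear receptor of fat oxidation, by 0.88 ± 0.17 (adjusted p = 0.00645, limma). Klf15 fell by 0.72 ± 0.17 (adjusted p = 0.0149, limma). Its call was lost without knockout sham replicate 3 (adjusted p = 0.065) or knockout TAC replicate 2 (adjusted p = 0.0622) in limma. Cebpb differed by -0.01. In wild type hearts Ppargc1a, Klf15 and Ppara differed by -0.66, -0.39 and -0.07.

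Set beside other mitochondrial lists, the members had the lowest median of the lists compared in both genotypes. In the knockout the medians were -1.02 for the 10 members, -0.66 for 17 fatty acid oxidation genes, -0.56 for 14 genes of the tricarboxylic acid cycle, -0.43 for 13 genes of the pyruvate and oxoglutarate dehydrogenase complexes and -0.42 for 13 respiratory chain genes. In wild type hearts they were -0.50, -0.34, -0.26, -0.15 and -0.19 in the same order. The 17 other enzymes of the same pathway had medians of -0.54 in the knockout and -0.24 in the wild type. Both lay above the medians of fatty acid oxidation and of the tricarboxylic acid cycle. The rank of the 10 members was thus not shared by the rest of their pathway. The numbers that fell in the knockout were 16 of 17, 13 of 14, 6 of 13 and 11 of 13 for the other lists. The kinase gene Pdk3 rose by 0.68 in the dehydrogenase list, the only member of these lists that rose, and is named after its value was seen. No test compared these lists, and the members were chosen with results of these data known.

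**Figure D4:**
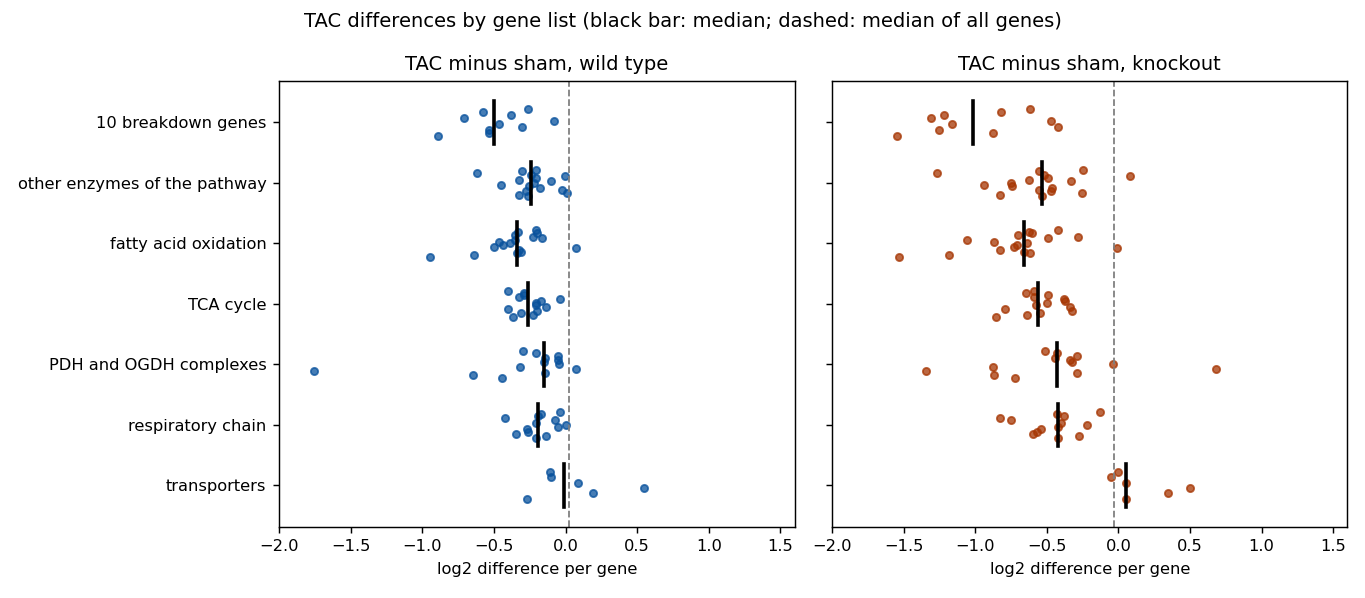
Log2 difference between TAC and sham for each gene (points, horizontal axis) of 7 lists (rows), in wild type hearts (left) and knockout hearts (right). Black bars are list medians, and the dashed line is the median of all 26989 genes. The 10 breakdown genes have the lowest median of the lists in both panels, -0.50 and -1.02, and the transporters lie around 0.

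Likeness over the 12 arrays was measured as the root mean square distance between signals centred on each gene's own mean, for the 3 members with the smallest p in the averaged TAC comparison. The search covered genes outside the members with a mean signal at or above the median of all genes. Predicted genes and small RNAs were passed over, and distances between members are given apart. Nearest to Mccc1 were Gcdh, Hsdl2 and Etfdh, at 0.06, 0.07 and 0.08 log2 units, where the spread of Mccc1 itself was 0.38. Nearest to Bckdhb were Aldh6a1 at 0.06, Slc25a20 at 0.12 and Hnmt at 0.13, against its own spread of 0.57. Nearest to Ivd were Slc25a20 at 0.07, Aldh6a1 at 0.09 and Klhdc1 at 0.09, against 0.51. Bckdhb and Ivd were each other's nearest member, at 0.10, and the member nearest to Mccc1 was Bcat2, at 0.11.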

How the data were processed

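Heart RNA was measured on 12 Clariom D arrays. The deposited table held log2 signals for 65527 probe sets, which the authors made with Affymetrix Expression Console per the submitters' processing notes; its version, normalization and genome build are not given in the sources used here. The log2 scale was read from the values, 1.27 to 19.93. After 6732 control probe sets were left out, 27268 probe sets carried 1 symbol, 1932 several and 29595 none, and 757 old symbols were updated through gene IDs. The brightest probe set per gene gave 26989 genes, with no filter on dim genes. Arrays carry no counts, so their number limits the precision.

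The 4 group means were fitted jointly to the 12 arrays (limma 3.58.1, R 4.3.3). Tests were 2-sided, and p-values were adjusted by Benjamini-Hochberg across every gene, with a threshold of 0.05. Errors beside differences are standard errors. The procedure was tested on simulated data. The members, lists, tests and the rule for named genes (all members, up to 5 per pathway list with the smallest averaged TAC p, and the 3 nearest genes of 3 members) were chosen with earlier results of these data known. No 2 arrays were identical. P-values measure the spread between the samples the labels call biological replicates. Alternatives were other scalings, filters, variance models, a replicate block and leaving out each array; those for genes outside the members were added after the data were seen.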

Additional observations from a re-analysis of the deposited data

Results flagged for a closer look

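The interaction estimates of 3 genes are given because every knockout array lay above the wild type mean after sham surgery and every knockout array lay below it after TAC. They were -0.39 ± 0.13 for Bckdk (adjusted p = 0.321, limma), -0.30 ± 0.11 for Echs1 (adjusted p = 0.354, limma) and -0.80 ± 0.25 for Ppara (adjusted p = 0.278, limma). None of these 3 passed the test of the interaction, and over the alternatives run none of them changed sign or passed.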

How the results depend on the processing

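All 10 members fell in the knockout and in the average over genotypes under every alternative run, and no member changed direction in any comparison except knockout against wild type after sham. For TAC in the wild type the count of members that passed, 0 as reported, was 3 with dim genes left out, 1 after quantile normalization, 5 with array weights, 1 with a trended and robust variance and 5 with a replicate block, and 0 to 3 when single arrays were left out. Calls over all genes, 48 as reported, were 198, 60, 352, 59 and 266 under the named settings in that order. Between the genotypes after TAC the count of members was 5 with dim genes left out, 5 with a replicate block and 0 to 6 without single arrays, and for the interaction 0 to 2. Over all genes, calls between the genotypes after TAC were 3 as reported, 621 with dim genes left out and 593 with a replicate block. Same-numbered arrays are not paired by the labels. Their deviations correlated above 0.1 in 10 of 18 pairs (-0.07 to 0.31). Among arrays of other groups, 8 of 12 arrays correlated best with one of their own number. Knockout sham and TAC arrays of the same number correlated at 0.25, 0.14 and 0.17, and there the replicate block left the count at 10. Differences after sham that changed sign were Bckdhb with array weights (0.0042) and Ppm1k after quantile normalization (-0.0172). Without single arrays these differences ran from -0.0789 to 0.0335 for Bckdhb, -0.13 to 0.12 for Bcat2, -0.0933 to 0.0629 for Ppm1k and -0.036 to 0.00399 for Mccc1. Outside the members, the TAC difference ran without single arrays from -0.20 to 0.12 for Ppara in the wild type, and in the knockout from -0.0293 to 0.0247 for Slc25a44 and -0.0937 to 0.092 for Cebpb. With all probe sets tested Slc7a5 and Slc7a6 did not pass in the knockout (adjusted p = 0.059 and 0.0563, limma), nor did Klf15 with only the arrays compared (adjusted p = 0.0539, limma). The causes were not tested. The members lie well above the background probe sets (medians 2.96 to 3.17).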
